A study of Mus musculus with 12 samples.

Results

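Deubiquitinases remove ubiquitin from proteins and so set how long many of them last. These data hold the RNA of 77 mouse gene symbols taken as deubiquitinases by name (Usp, Uchl, Otub, Otud, Josd and Stambp with their numbers or letters, plus Atxn3, Bap1 and Cyld; Usp9y was left out), of 23238 symbols in all. The study asked what raises p300, a histone acetyltransferase, in fibrotic lung, and studied UCHL3 as the deubiquitinase that stabilises the p300 protein. The question put to the RNA here was which deubiquitinase genes these sorted cells express, and which differ with bleomycin, a drug that scars the lung, or with deletion of p300.

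RNA came from 12 mice in 4 groups of 3, with 1 library per mouse. Con mice were controls that received PBS into the trachea and BLM mice were controls that received 4 mg/kg bleomycin. KO mice carried the p300 knockout and received PBS, and KOBLM mice carried it and received 4 mg/kg bleomycin. The knockout removes a floxed exon of p300 (Ep300) after tamoxifen, through Spc-CreERT2, a Cre recombinase driven by the surfactant protein C promoter of alveolar type II (ATII) cells, so that other cells keep p300. The labels give 10 mg/kg tamoxifen at 8 weeks of age before bleomycin, and call the controls WT. The study's texts describe these controls in one place as Spc-p300 f/f mice and in another as C57BL/6 mice, and do not state plainly whether the sequenced controls received tamoxifen. A caption on the isolated cells used for PCR names vehicle or tamoxifen given to Spc-p300 f/f mice. Had the sequenced controls received vehicle, tamoxifen and deletion could not be told apart in the comparisons of genotype. Cells were sorted for CD74 and EpCAM, and the libraries read the 3′ ends of transcripts.

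The enzymes fall into families by their catalytic fold. The USP family is the largest. UCH enzymes (Uchl1, Uchl3, Uchl5, Bap1) cut small adducts or work inside larger complexes, OTU enzymes often prefer a given type of ubiquitin chain, Josephin enzymes include ataxin-3, and Stambp and Stambpl1 are zinc metalloproteases that act on endosomes. All but the metalloproteases use a cysteine in the active site. Several act in pathways of lung fibrosis: Usp4, Usp11, Usp15 and Uchl5 on TGF-beta receptors or SMAD proteins, and Cyld on NF-kB signalling.

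The catalytic cysteine sits in a conserved stretch of the UCH coding sequences, which shows how close Uchl3 and Uchl4 are. Below are 33 bases of coding sequence for each UCH gene, read from GENCODE M21 transcripts on GRCm38 (mm10), with the cysteine codon in capitals and 5 codons on either side.
Uchl3: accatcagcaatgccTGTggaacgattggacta
Uchl4: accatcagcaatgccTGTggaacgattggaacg
Uchl1: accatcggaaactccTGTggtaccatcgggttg
Uchl5: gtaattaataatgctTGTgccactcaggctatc
Bap1: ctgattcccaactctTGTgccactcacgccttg
The Uchl3 window lies in exon 4 of 9 at chr14:101666596-101666628, on the plus strand, and the codon is number 95. The Uchl4 window is in the only exon of that gene at chr9:64235506-64235538, plus strand. It differs from the Uchl3 window at 3 of 33 bases, against 10 for Uchl1 (chr5:66679741-66679773), 17 for Uchl5 (chr1:143794277-143794309) and 19 for Bap1 (chr14:31253456-31253488). Over the aligned 693 coding bases Uchl3 and Uchl4 were 97.4% identical. Of the 426 possible 75-base reads from the last 500 bases of the Uchl3 transcript, 28.2% matched Uchl4 exactly and 70.7% with at most 2 mismatches. In the other direction, 49 of the 426 Uchl4 reads matched Uchl3 exactly and 22.3% with at most 2 mismatches. Where in these 500 bases the reads fell is not known from counts, so some reads of the pair may be exchanged, and the level of each is uncertain.

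The libraries held 7005005 to 11153154 counts. BLM replicate 3 stood apart: it had 6847 genes with a count against 8790 to 13838 in the other 11, its Spearman correlation with the other BLM libraries was 0.471 to 0.476 against at least 0.691 for the remaining pairs within groups, and 14 pluripotency genes summed to 2700.1 CPM (counts scaled to a common library total) against 0.6 to 24.0. Among the ATII markers, all 12 of which were detected, surfactant protein C (Sftpc) ranged from 0.554 to 612 CPM. These markers include Lyz2 and the sort markers Cd74 and Epcam, and whether each is particular to ATII cells was not tested. The 12 ATII markers had summed levels of 3479.1 to 4721.9 CPM in the Con libraries, of 1621.0 to 3697.5 CPM in the BLM libraries, of 1450.0 to 3675.6 CPM with KO alone and of 2594.1 to 4137.0 CPM with KO plus bleomycin. The 17 macrophage markers, all detected, summed, in the same order, to 12168.9 to 24232.7, 1044.8 to 10251.0, 10058.9 to 40898.1 and 8364.4 to 20023.8 CPM, and exceeded the ATII sum in every library but BLM 3. In BLM 3 the ATII markers Sftpd, Abca3 and Lamp3 and the macrophage markers Adgre1, Marco, Siglecf and Csf1r were at 0, and Sftpb was at 0 in KOBLM 3. Each deubiquitinase value below is thus that of a sorted mixture, in which fewer cells of a type and less RNA per cell cannot be told apart. The part of this mixture in the results was not tested.

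Of the 77 genes, 67 had more than 3 counts in at least 1 library, and 23 did so in all 12. Of the 10 that never passed 3 counts, 9 had 0 counts in every library and Otud7a had at most 1. With BLM 3 left out, 32 genes were above 3 counts in all libraries. A count of 0 allows up to 3 counts, which is 0.269 to 0.428 CPM in these libraries (counting error only). Genes with few or no reads included Usp13, Usp26, Usp51 and Otud6a, at 0 throughout, and Uchl1os, an antisense RNA and no enzyme, also at 0. Usp6nl, named after a deubiquitinase but encoding a Rab GTPase-activating protein, had a mean of 22.1 CPM. Usp39, a splicing factor that lacks deubiquitinase activity, was at 18.8 CPM on average.

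**Figure D1:**
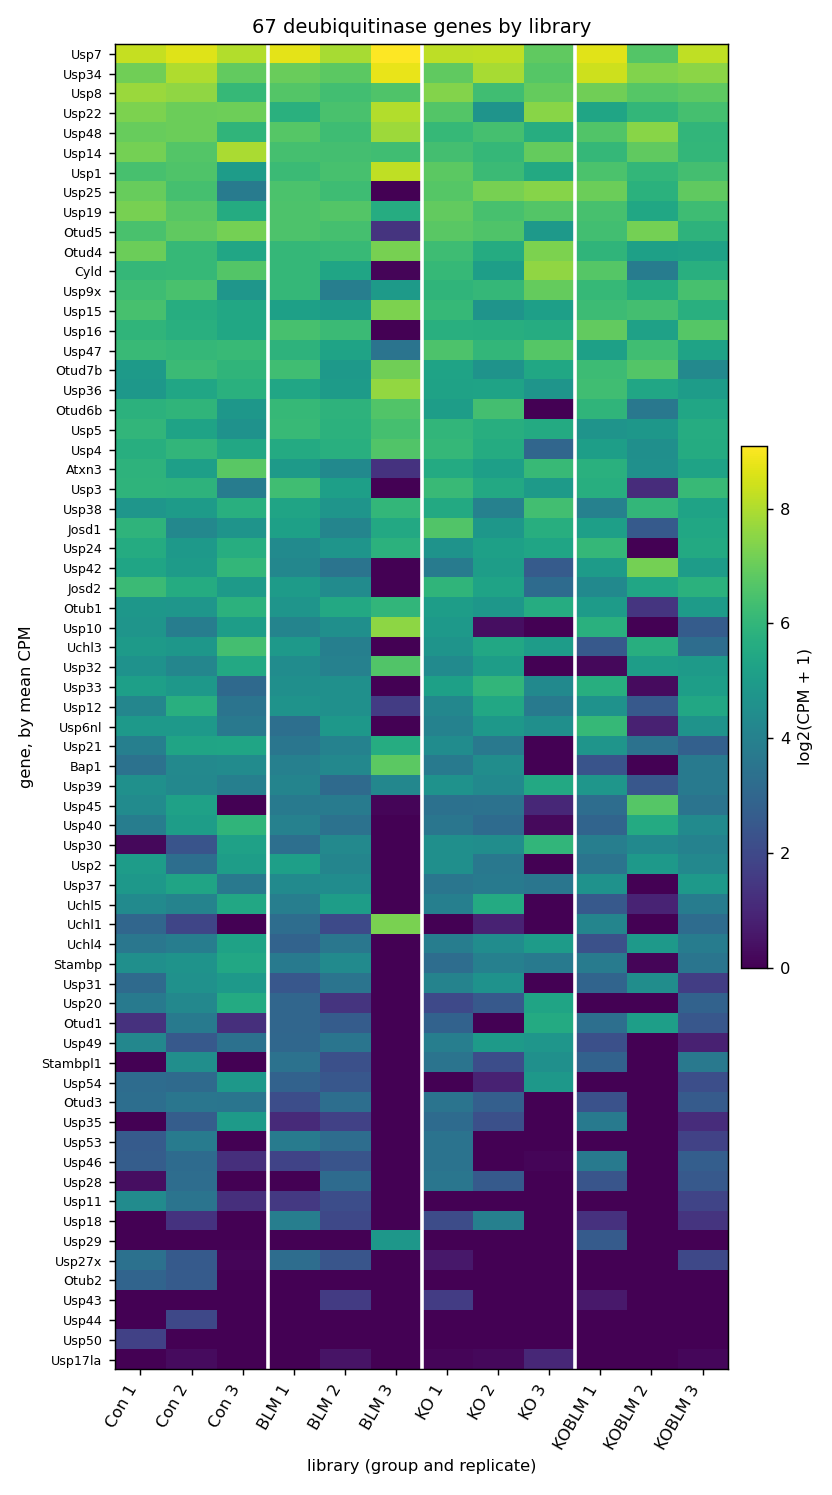
Level of each of the 67 deubiquitinase genes above 3 counts in some library (rows, by mean CPM) in the 12 libraries (columns, in groups of 3), coloured by log2(CPM + 1). Usp7 and Usp34 lead, while BLM 3 is at 0 counts for 34 of the 67 genes and holds the highest level of 18.

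The 77 genes summed to 2101.0 to 3817.9 CPM, with a median of 2645.6, and the 10 highest held 40.6% to 52.1% of those counts. Usp7, which acts on p53 and its ligase MDM2, was the most abundant deubiquitinase RNA in 10 of the 12 libraries. It measured 316, 402 and 262 CPM in Con, 418, 238 and 546 in BLM, 288, 298 and 116 in KO and 412, 101 and 301 in KOBLM, so that the groups overlapped throughout. Cyld led in KO 3 and Usp48 in KOBLM 2. Usp34, which acts on axin in Wnt signalling, followed with a mean of 195 CPM, then Usp8, which acts on receptors at endosomes, with 122 CPM.

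The other 7 of the 10 highest spanned roles from chromatin to the proteasome. Usp22, the histone H2B deubiquitinase of the SAGA complex, averaged 109 CPM. Usp14, which trims chains at the proteasome, and Usp48 each averaged 104 CPM, and Usp1, which acts on FANCD2 and PCNA in DNA repair, 94.4 CPM. Usp25 (93.1), the endoplasmic reticulum enzyme Usp19 (87.6) and Otud5 (87.2 CPM) closed the list. Because the kit counts 3′ ends, no correction for length was made. From Usp8 down, neighbours in this order differed by far less than their spread. Without BLM 3 the coefficient of variation of the 10 highest genes ran from 30.1% (Usp1) to 51.2% (Usp22).

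Uchl3, the enzyme the study concerns, ranked at place 31 of the 77 by mean CPM (29.0 CPM). It had 226, 252 and 872 counts in Con, 204, 108 and 0 in BLM, 249, 313 and 346 in KO and 36, 534 and 77 in KOBLM. The high values were in Con 3 and KOBLM 2 and the only 0 was in BLM 3, and no pair of groups was separated. Means were 46.5 CPM ± 31.0 in Con, 14.5 ± 14.6 in BLM, 33.4 ± 8.95 in KO and 21.6 ± 25.9 in KOBLM (SD, n = 3 each).

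No difference in Uchl3 between groups passed the threshold. With bleomycin in control mice, edgeR's quasi-likelihood test gave a log2 fold change of -1.54 (SE 1.58, 95% interval -4.92 to 1.83, adjusted p = 1). An exact two-sided permutation test over the libraries gave p = 0.2, where 3 against 3 cannot go below 0.1. Without BLM 3 the log2 fold change was -0.96, and without Con 3 it was -0.88. With bleomycin averaged over both genotypes the log2 fold change was -1.13 (SE 1.10, adjusted p = 1 by edgeR), and the exact permutation p was 0.0866 with an Benjamini-Hochberg value of 0.758 across all 24 permutation tests made. For KO against Con the fitted log2 difference was -0.31 (interval -3.62 to 2.99), for KOBLM against BLM 0.51 (-2.80 to 3.82) and for KOBLM against KO -0.72 (-4.04 to 2.60), all with an adjusted p of 1 by edgeR.

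Uchl4, a single-exon copy of Uchl3 on chromosome 9, had 83, 126 and 386 counts in Con, 45, 85 and 0 in BLM, 131, 147 and 332 in KO and 28, 298 and 119 in KOBLM. The ratio of Uchl3 to Uchl4 counts ran from 0.647 to 4.53 in the 11 libraries with reads of either. Both were at 0 in BLM 3, and with Uchl4 too no groups were separated. Its bleomycin difference in control mice was -1.61 on the log2 scale (SE 1.76, adjusted p = 1 by edgeR).

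Uchl5, a proteasome-bound enzyme that also binds SMAD proteins, had 19.5, 15.6 and 42.7 CPM in Con, 13.8, 32.5 and 0 in BLM, 14.2, 45.7 and 0 in KO and 4.82, 0.867 and 13.1 in KOBLM. The groups overlapped, and its log2 fold change for BLM against Con was -0.56 (SE 2.11, adjusted p = 1 by edgeR). Bap1, the tumour suppressor that deubiquitinates histone H2A, had 9.76, 18.5 and 19.9 CPM in Con and 14.4, 17.8 and 110 in BLM, against 12.6, 21.2 and 0 in KO and 4.15, 0 and 12.4 in KOBLM. All KOBLM values were below all BLM values (fitted log2 fold change -2.78, SE 2.08, adjusted p = 1 by edgeR), and the highest was BLM 3.

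Ep300 itself, the gene deleted, had 141, 143 and 51 CPM in Con, 119, 90.5 and 42.6 in BLM, 145, 154 and 103 in KO and 169, 54.2 and 96.0 in KOBLM. These groups overlapped, averaging 112 ± 52.7, 84.0 ± 38.5, 134 ± 27.1 and 107 ± 58.3 CPM in that order (SD over 3 mice). The reads come from the 3′ end and not from the floxed exon, so the Ep300 count does not check the deletion.

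**Figure D2:**
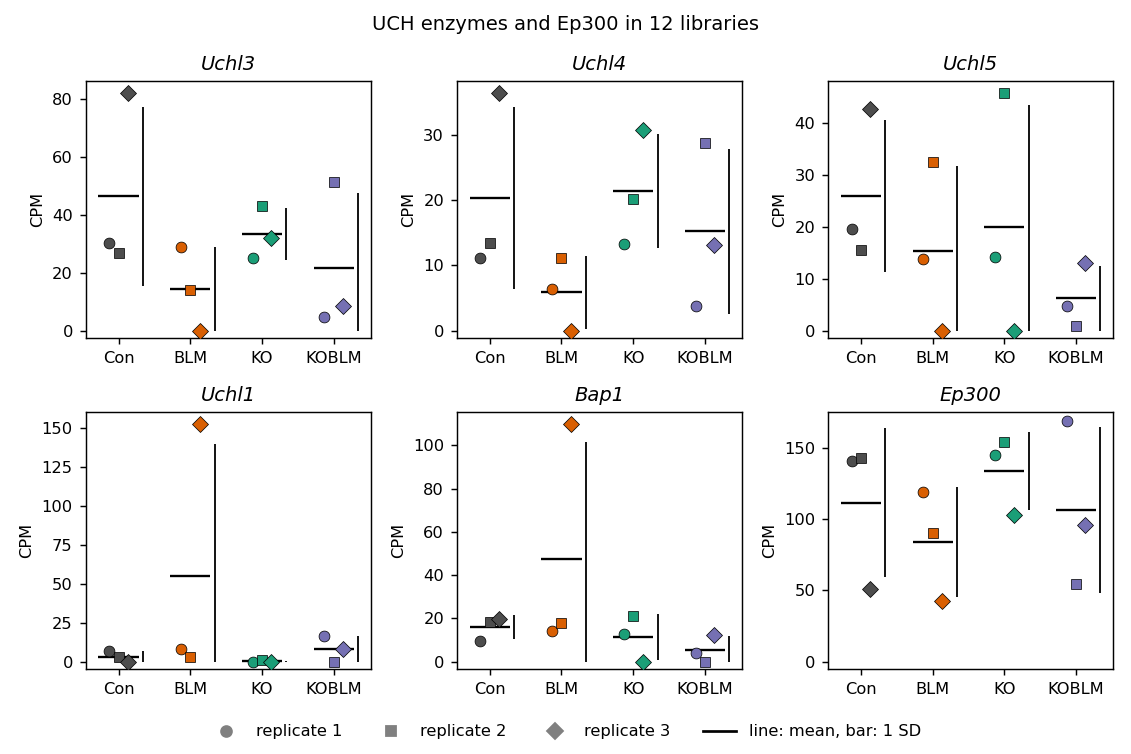
CPM of Uchl3, Uchl4, Uchl5, Uchl1, Bap1 and Ep300 in each library, by group (symbols are the replicates, the line is the mean and the bar 1 SD, cut off at 0). Con 3 is highest for Uchl3 at 82.2 CPM, and BLM 3 lies at 0 for Uchl3, Uchl4 and Uchl5 and highest for Uchl1 (153 CPM) and Bap1 (110 CPM).

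Of the 77 genes, 61 passed the filter on low counts and were tested, and 16 were not. A gene was called when its fold change was over 1.5 and its unadjusted p under 0.05. The study used the same cut-offs, but its text does not name the test behind its p-values for these RNA data. It reports many more genes past them for BLM against Con than were called here. The calls below are thus those of the tests run here and not those of the study. In BLM against Con, 0 of 61 genes were called by edgeR and 0 had an unadjusted p under 0.05, while 4.27% of all 13054 tested genes were called; DESeq2 called 1, Atxn3, with 7.25% of all genes called. In KO against Con, 1 was called, with 1.44% of all genes called. In KOBLM against BLM, edgeR called 0 (0 at unadjusted p under 0.05, and 1 by DESeq2, Usp42, which called 5.78% of all genes), with 3.16% of all genes called by edgeR. In KOBLM against KO, edgeR called 0 (0 at unadjusted p under 0.05, and 2 by DESeq2, Uchl1 and Usp49, which called 3.52% of all genes), with 1.69% by edgeR. Bleomycin averaged over the genotypes gave 1 call against 4.47% of all genes, the p300 genotype averaged over the treatments 1 against 2.9%, and the interaction of both 0 against 2.82% (0 at unadjusted p under 0.05, and 1 by DESeq2, Usp42, which called 4.79% of all genes). After Benjamini-Hochberg adjustment over all genes, edgeR left 0 of the 61 in each of these 7 comparisons, and DESeq2 0 too.

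Usp11 was the gene called for the p300 genotype. It lies on chromosome X (chrX:20703906-20720539, plus strand) and acts on the TGF-beta receptor and on BRCA2. Its counts were 148, 97 and 14 in Con, 13, 26 and 0 in BLM, 0, 0 and 0 in KO and 0, 0 and 24 in KOBLM. All KO libraries were at 0 and below all Con libraries, and in bleomycin-treated mice the groups overlapped. With the KO libraries set at 3 counts each, the mean of Usp11 was 31.7-fold lower in KO than in Con (10.5 CPM on average in Con). This bound allows for counting error in KO only and not for the spread between mice. Without Con 1, which held most of the reads, the bound was 17.7-fold. The test gave an unadjusted p of 0.0318 and an adjusted p of 1 (edgeR). The genotype effect averaged over the treatments had an unadjusted p of 0.0403 and an adjusted p of 1 by edgeR. Leaving out Con 1 or any KO library ended the call of KO against Con (unadjusted p 0.0533 to 0.0706, adjusted p = 1 by edgeR), and leaving out any library but BLM 3, Con 3 or KOBLM 3 ended that of the averaged effect.

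Uchl1 was the gene called for bleomycin averaged over the genotypes. This UCH enzyme is abundant in neurons and neuroendocrine cells, and the gene lies at chr5:66676091-66687234, plus strand. Its counts were 53, 26 and 0 in Con, 59, 24 and 1703 in BLM, 0, 6 and 0 in KO and 124, 0 and 75 in KOBLM. BLM 3 held most of the reads, and the other BLM libraries lay within or just above the range of Con. The log2 fold change was 4.29 (SE 1.91, unadjusted p 0.0409, adjusted p = 1 by edgeR), and 2.82 without BLM 3 (unadjusted p 0.204). The call was also lost without any Con library, KO 1, KO 3, KOBLM 1 or KOBLM 3.

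Groups whose libraries did not overlap were counted as a second view that uses no fitted spread. For BLM against Con, 7 of the 61 genes did not overlap on the CPM scale, all 7 lower in BLM, with 17.1% of all tested genes not overlapping. These were Atxn3, Stambp, Usp14, Usp20, Usp42, Usp47 and Usp54, named after their values were seen. How many of all non-overlapping genes were lower was not counted, here or without BLM 3. BLM 3 was at 0 counts for 34 of the 67 deubiquitinase genes above 3 counts somewhere. For KO against Con, 3 (Stambp, Usp11 and Usp40, all lower in KO) did not overlap, against 9.74% of all genes. For KOBLM against BLM, 5 did not overlap, against 11% of all genes: Bap1, Otud4 and Usp5 were lower in KOBLM, and Usp8 and Usp42 higher. For KOBLM against KO, 2 did not overlap (Usp30 and Usp49, both lower in KOBLM), against 6.82% of all genes. The 7 of 61 for bleomycin is a smaller share than that of all genes. With BLM 3 left out, 12 of 61 did not overlap for BLM against Con (31.5% of all genes), of which 10 were lower in BLM, and 14 for KOBLM against BLM (23.4% of all genes). The macrophage marker sums given above were also lower in every BLM than in every Con library. So were those of 6 lymphocyte markers (0.0 to 16.9 against 28.1 to 58.8 CPM) and, narrowly, of the ciliated and secretory markers. Fibroblast sums were higher, and ATII and endothelial sums overlapped. The part of these cells in the 7 genes was not tested.

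**Figure D3:**
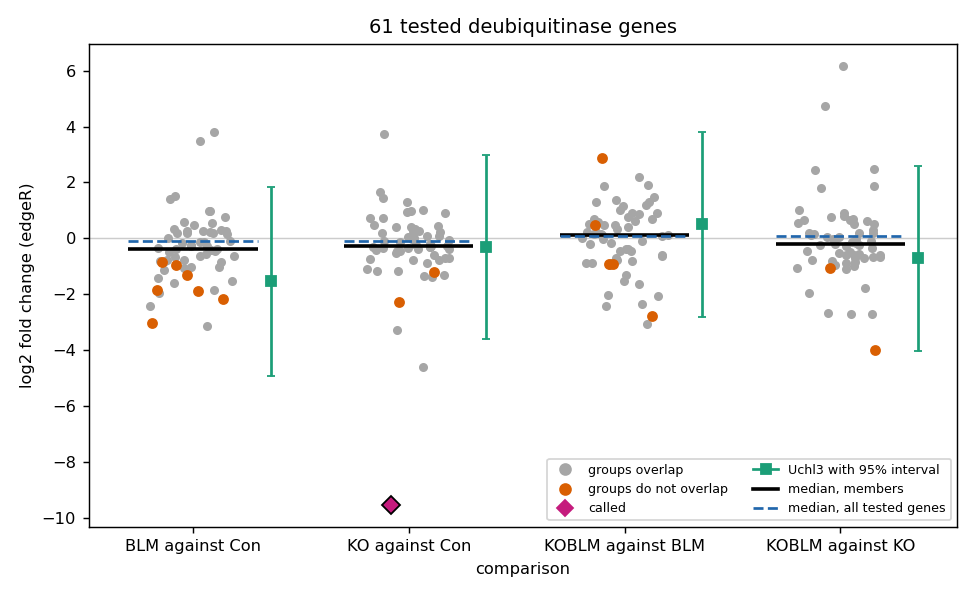
Log2 fold change (edgeR) of the 61 tested deubiquitinase genes in the 4 comparisons of 2 groups, with genes whose groups do not overlap in orange, the called gene Usp11 as a diamond, and Uchl3 with its 95% interval beside each column. The solid line is the median of the 61 genes and the dashed line that of all 13054 tested genes, and both lie between -0.37 and 0.12.

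Usp14 was the most abundant of the 7 genes that were lower in every BLM than in every Con library. It measured 146, 101 and 247 CPM in Con and 83.7, 82.3 and 78.6 CPM in BLM. The BLM libraries lay close together, BLM 3 among them, and all 3 fell below the lowest Con library. KO (82.4, 65.6 and 122 CPM) and KOBLM (66.1, 115 and 64.0 CPM) overlapped each other. The Con mean was 165 CPM ± 75 and the BLM mean 81.5 CPM ± 2.6 (SD over 3 mice). Because these groups did not overlap, the exact two-sided permutation test could give only p = 0.1, the smallest that 3 against 3 allows. That p restates the lack of overlap, and its Benjamini-Hochberg value was 0.758 across all 24 permutation tests made. The edgeR log2 fold change was -0.97 (SE 0.57, adjusted p = 1). The last 500 bases of Usp14 overlap Thoc1 on the opposite strand. Those of Uchl4, Usp2, Usp8, Usp16, Usp29, Usp30, Usp34, Usp40, Usp49 and Usp54, among others, also overlap genes on the opposite strand. Those of Usp10 overlap Gm20388 on the same strand, where a count by strand would not part them. The strand setting of the counting is not given in the sources used here, so reads of all these partners may be mixed.

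Atxn3, the Josephin enzyme whose human counterpart carries the repeat expanded in Machado-Joseph disease, had 57.2, 33.8 and 109 CPM in Con and 29.8, 19.0 and 1.52 in BLM. Its BLM libraries were all lower, with BLM 3 the lowest (log2 fold change -1.85, SE 1.04, adjusted p = 0.995 by edgeR). KO (46.6, 34.1 and 69.5 CPM) and KOBLM (54.1, 22.6 and 38.2 CPM) overlapped.

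Usp47, which acts on DNA polymerase beta in base excision repair, had 70.1, 66.4 and 69.2 CPM in Con, 57.5, 38.1 and 10.3 in BLM, 93.0, 64.4 and 102 in KO and 34.8, 77.2 and 37.9 in KOBLM. Its Con libraries were the least spread of these genes, and the groups with and without bleomycin overlapped in the knockout. The log2 fold change for BLM against Con was -0.86 (SE 0.77, adjusted p = 1 by edgeR).

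Usp42, which acts on p53, was the gene with the largest difference between BLM and KOBLM among those that did not overlap. It had 39.5, 30.9 and 64.7 CPM in Con, 17.3, 10.2 and 0 in BLM, 12.9, 32.8 and 5.09 in KO and 30.9, 147 and 31.8 in KOBLM. All BLM libraries were below all Con and all KOBLM libraries, whereas KO and KOBLM overlapped. Its log2 fold change was -2.16 (SE 1.51) for BLM against Con and 2.87 (SE 1.55) for KOBLM against BLM, with an adjusted p of 1 by edgeR in both. The interaction was 4.04 on the log2 scale (SE 2.12, unadjusted p 0.0767, adjusted p = 1 by edgeR) and passed the threshold without BLM 3 (3.46, unadjusted p 0.025).

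Usp20, Stambp and Usp54 had lower levels than the other genes of this set. Usp20, which acts on the hypoxia factor HIF-1alpha, had 12.3, 18.1 and 46.6 CPM in Con and 6.99, 1.58 and 0 in BLM, with 0, 0 and 6.21 in KOBLM. Its log2 fold change for BLM against Con was -3.04 (SE 2.52, adjusted p = 1 by edgeR). Stambp, a metalloprotease that acts on cargo at endosomes, had 22.2, 24.4 and 42.3 CPM in Con, 12.0, 19.5 and 0 in BLM, 8.62, 14.7 and 12.0 in KO and 12.7, 0.0963 and 10.6 in KOBLM. Its Con libraries lay above all others, with log2 fold changes of -1.33 (SE 1.93) for BLM and -1.19 (SE 1.92) for KO against Con, both with an adjusted p of 1 by edgeR.

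Between BLM and KOBLM the genes that did not overlap included some of the more abundant members. Usp8 had 101, 80.5 and 95.7 CPM in BLM and 139, 103 and 113 in KOBLM, every KOBLM library being the higher (log2 fold change 0.46, SE 0.58, adjusted p = 1 by edgeR). Without bleomycin it had 211, 190 and 66.9 CPM in Con and 169, 77.2 and 122 in KO, which overlapped. Usp5, which takes apart free ubiquitin chains, had 69.0, 56.6 and 83.8 CPM in BLM and 25.2, 27.2 and 48.9 in KOBLM, every KOBLM library being the lower (log2 fold change -0.92, SE 0.75, adjusted p = 1 by edgeR). Otud4, an OTU enzyme, had 65.8, 69.8 and 148 CPM in BLM and 61, 35.4 and 37.0 in KOBLM, again all lower, with a log2 fold change of -0.92 (SE 0.68, adjusted p = 1 by edgeR).

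Within the knockout and for the knockout alone the genes that did not overlap had at most 679 counts in any library (Usp30 in KO 3). Usp49, a histone H2B deubiquitinase, had 13.8, 29.8 and 26.6 CPM in KO and 3.61, 0 and 0.776 in KOBLM (log2 fold change -3.99, SE 2.38, adjusted p = 1 by edgeR). Usp30, an enzyme of the outer mitochondrial membrane that opposes mitophagy, had 22.1, 21.0 and 62.8 CPM in KO and 13.9, 18.7 and 15.3 in KOBLM. It ranged from 0.134 to 36.3 CPM in the Con libraries alone, wider than that gap. Usp40 had 13.5, 32.2 and 60.3 CPM in Con and 10.8, 7.97 and 0.185 in KO (log2 fold change -2.27, SE 1.90, adjusted p = 1 by edgeR).

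**Figure D4:**
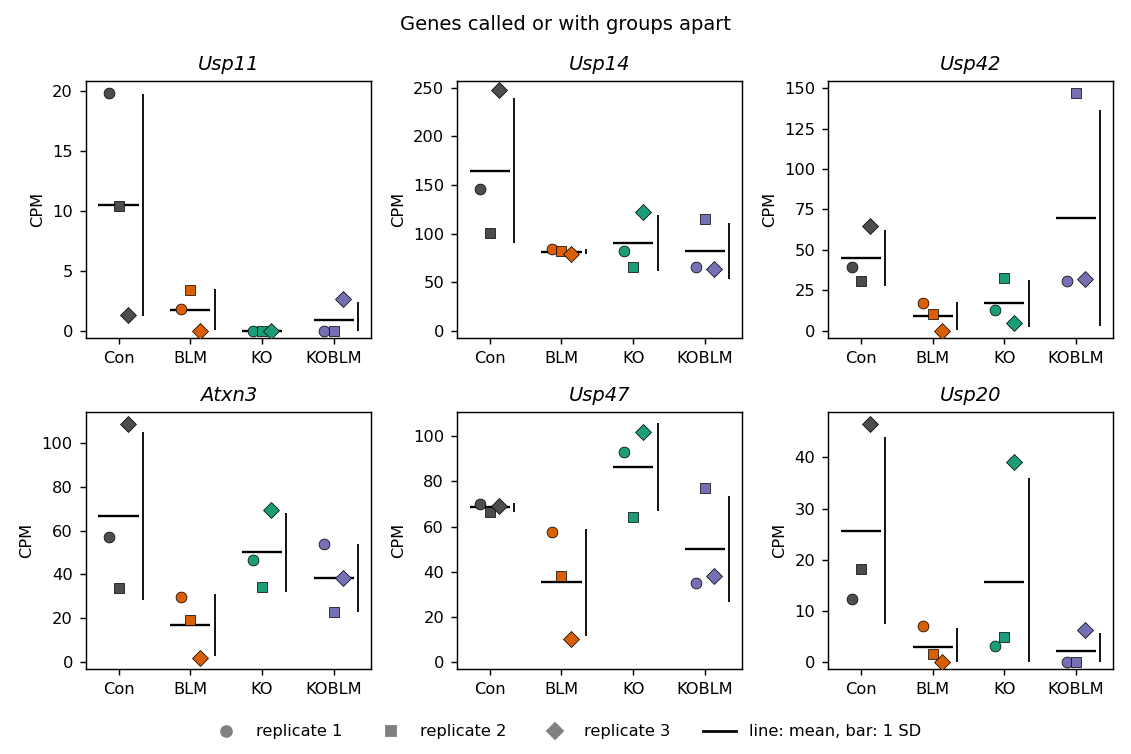
CPM of Usp11, Usp14, Usp42, Atxn3, Usp47 and Usp20 in each library by group (symbols are the replicates, line the mean and bar 1 SD, cut off at 0). Usp11 is at 0 in all KO libraries, and in Usp14, Usp42, Atxn3, Usp47 and Usp20 the BLM libraries lie below every Con library.

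Fold changes over the whole list of tested genes are given next. In BLM against Con, 21 of the 61 tested genes (34.4%) had a log2 fold change above 0 and 40 below. Of all tested genes, 47.3% were above 0. The median of the 61 was -0.37 against -0.08 over all tested genes. The medians were -0.27 against -0.09 for KO against Con, 0.12 against 0.10 for KOBLM against BLM and -0.21 against 0.08 for KOBLM against KO. No test was made of the list. Leaving out 1 library at a time moved the median for BLM against Con between -0.77 (without BLM 1) and -0.19 (without BLM 3). The 16 tested targets of the inhibitors used by the study to find the enzyme that acts on p300, of 17 listed (Usp13 was not tested), had 0 genes called by edgeR in each comparison of 2 groups and 0 at an unadjusted p under 0.05, while DESeq2 called 1 of them, Uchl1 in KOBLM against KO. Over all tested genes, edgeR called 1.44% to 4.27% in these comparisons, and DESeq2 called 3.52% in KOBLM against KO. The median of the 16 targets for BLM against Con was -0.33.

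By function, the 9 tested genes acting on chromatin and histones H2A or H2B, the 6 of the TGF-beta pathway, the 9 of NF-kB and innate immune signalling, the 10 of DNA damage and p53 and the 7 of endosomes and mitochondria held no call for bleomycin in control mice by edgeR or DESeq2. Of all tested genes, edgeR called 4.27% and DESeq2 7.25% in that comparison. The medians of these lists for BLM against Con were -0.09, -0.69, -0.23, 0.24 and -0.63 on the log2 scale, with all genes at -0.08. The TGF-beta and DNA damage lists both hold Usp11, the call of KO against Con. In the TGF-beta list the most abundant genes were Cyld (66.8 CPM), Usp9x (62.5), Usp15 (61.4) and Usp4 (48.0 CPM on average). Cyld had 65.3, 67.6 and 99.9 CPM in Con and 65.8, 39.8 and 0.0897 in BLM, and its groups overlapped. The 3 Josephin genes summed to 98.7 to 188.6 CPM in Con and 45.0 to 95.5 in BLM, where the sums did not overlap, and to 98.3 to 206.1 in KO and 68.1 to 134.8 in KOBLM. The 7 genes of endosomes and mitochondria, led by Usp8 and Usp19, summed to 266.1 to 406.7 CPM in Con and 238.5 to 246.0 in BLM.

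The remaining abundant genes of these lists showed the same wide spread. Among OTU genes, Otud5 averaged 87.2 CPM, Otud4 77.9, Otud7b 58.9 and Otud6b 49.5 CPM, and the 7 tested had a median log2 fold change of 0.19 for BLM against Con. In the chromatin list Usp16 and Usp36, after Usp7 and Usp22, averaged 60.2 and 53.4 CPM. Usp36, a nucleolar enzyme, had 27.8, 40.7 and 53.4 CPM in Con and 40.3, 31.0 and 197 in BLM, where BLM 3 alone exceeded the Con range. Of the inhibitor targets with few reads, Usp2 averaged 17.9 CPM and Usp28 3.49 CPM. Usp10, which acts on p53, had 25.8, 13.3 and 32.2 CPM in Con, 16.1, 22.2 and 188 in BLM, 28.5, 0.275 and 0 in KO and 53.4, 0 and 5.32 in KOBLM, a spread within groups as wide as that between them. Usp29, not tested, was at 0 in 10 libraries and at 27.2 CPM in BLM 3 and 5.09 CPM in KOBLM 1. Josd1 and Josd2 averaged 37.9 and 35.1 CPM, Usp3 42.4, Usp32 27.8 and Stambpl1 7.46 CPM.

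Ubiquitin itself is what these enzymes release, and 4 genes that encode it were tested. For BLM against Con, 2 of the 4 had a log2 fold change above 0 and 2 below. For KOBLM against BLM, 1 was above 0 and 3 were below. Rps27a, which encodes ubiquitin fused to a ribosomal protein, from which deubiquitinases free it, was called higher in BLM than in Con and lower in KOBLM than in BLM. Rps27a had 198, 161 and 384 CPM in Con and 523, 498 and 1196.3 in BLM, against 221, 160 and 274 in KO and 204, 257 and 211 in KOBLM. All BLM libraries were above all others, and BLM 3 was the highest.

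The log2 fold change of Rps27a was 1.53 for BLM against Con (SE 0.47, unadjusted p 0.00577, adjusted p = 0.995 by edgeR) and 1.20 without BLM 3. It was -1.56 for KOBLM against BLM (SE 0.47, unadjusted p 0.00516, adjusted p = 1 by edgeR) and 0.06 for KOBLM against KO (SE 0.46). Both calls were made in all 12 alternatives run for each. Rps27a has processed copies in the mouse genome that can share its reads, and the 6 fibroblast markers (5 above 3 counts somewhere) summed to 64.3 to 424.1 CPM in Con, 912.3 to 1397.3 CPM in the BLM libraries, 33.0 to 411.2 CPM for KO and 116.0 to 587.0 CPM for KOBLM. They were thus highest in the same group as Rps27a, and their part in both of its differences was not tested.

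Among 12 tested deubiquitinases outside the name rule, Psmd14 was called in BLM against Con and the other 11 were not. Of all tested genes, 4.27% were called there. Psmd14 is the metalloprotease of the proteasome lid that removes chains from proteins about to be degraded. It had 71.7, 26.1 and 39.9 CPM in Con, 105, 155 and 257 in BLM, 78.3, 69.2 and 74.6 in KO and 99.7, 112 and 107 in KOBLM. All bleomycin libraries were above the libraries without it in the same genotype. The fibroblast markers were also higher in every BLM than in every Con library, as given for Rps27a, and their part in the Psmd14 difference was not tested. The log2 fold change was 1.88 for BLM against Con (SE 0.59, unadjusted p 0.0067, adjusted p = 0.995 by edgeR), 1.67 without BLM 3, and 0.51 for KOBLM against KO (SE 0.58, adjusted p = 1 by edgeR). Usp14, its neighbour at the proteasome, was lower in BLM than in Con (above). Of the 30 tested ubiquitin E2 enzymes and the 2 E1 enzymes, 0 were called by edgeR in a comparison of 2 groups and 0 had an unadjusted p under 0.05 there. Over all tested genes, edgeR called 1.44% to 4.27% in these comparisons. DESeq2 was not run on the E2 and E1 lists separately.

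**Figure D5:**
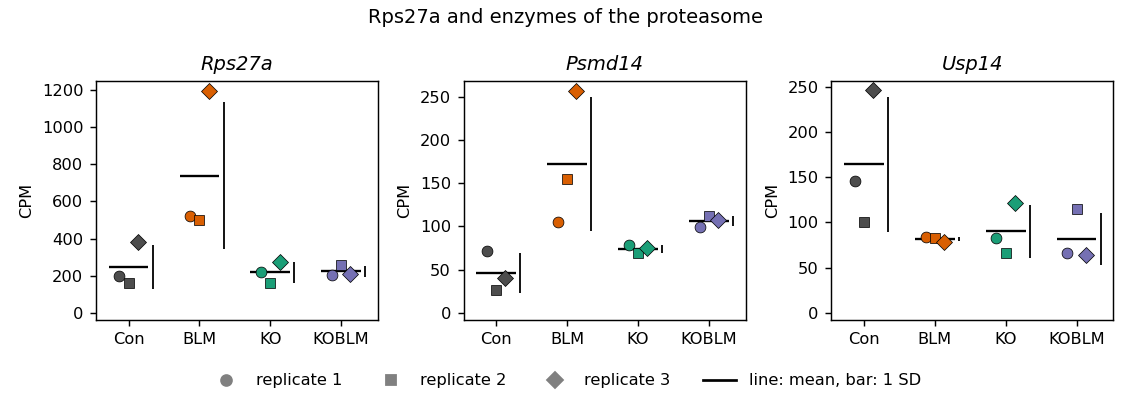
CPM of Rps27a, Psmd14 and Usp14 in each library by group (symbols are the replicates, line the mean and bar 1 SD). The 3 BLM libraries lie above all 9 others for Rps27a, above all 3 Con libraries for Psmd14 and below all 3 Con libraries for Usp14.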

How the data were processed

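The authors deposited raw counts per gene symbol for each library, with no normalization. The submitters' processing notes name Bowtie2, edgeR and the build mm10, without versions or roles, and how reads were assigned to genes is not given in the sources used here. Entries sharing a symbol (79 entries of 35 symbols) were summed, and CPM were computed on library totals. Counts were fitted in 1 model of the 4 groups with edgeR 4.0.16 (R 4.3.3): quasi-likelihood test, TMM scaling, filterByExpr (minimum count 10, minimum total count 15), Benjamini-Hochberg adjustment over 13054 genes. The step was run on simulated counts with far less spread between libraries than in these data. That run checks the code and says nothing of the power here. Alternatives were DESeq2 1.42.0, other scalings, no filter, the replicate block, fits of 2 groups, and each library left out. Exact permutation tests used scipy on CPM. The common biological coefficient of variation was 1.44, which limits the precision of every fold change. Each edgeR p-value sets a difference between groups against a spread between mice that is estimated over all 4 groups. The permutation p-values rank a difference in means among all relabellings of the libraries compared. Members, gene lists and tests were chosen with earlier results of these data known. Named genes were the UCH family, inhibitor targets, Ep300, every called member, the 10 highest by mean CPM and the 4 highest of each functional list, with others named as said. Same-numbered libraries were not paired: of 18 such pairs, none had deviations correlated over 0.1. Some ubiquitin pathway genes are not reported here.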

Additional observations from a re-analysis of the deposited data

Results flagged for a closer look

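Rps27a, a ubiquitin fusion gene, drew attention because its bleomycin effect differed between the genotypes. The difference, KOBLM less KO minus BLM less Con, was -1.47 on the log2 scale (SE 0.66, unadjusted p 0.041, adjusted p = 1 by edgeR). In control mice all 3 BLM libraries were higher than all 3 Con libraries, and in knockout mice the groups overlapped. The 6 fibroblast markers summed to 912.3 to 1397.3 CPM in the BLM libraries and to 33.0 to 587.0 CPM over the 9 others, and their part in this difference was not tested. The call was made in 10 of 17 alternatives (log2 -1.90 to -1.14, adjusted p 0.885 to 1). It was lost without a filter on low counts and without Con 1, Con 2, KO 1, KO 3, KOBLM 1 or KOBLM 3, and was -1.14 (unadjusted p 0.0428) without BLM 3. In the main edgeR fit no deubiquitinase gene passed the threshold for this difference. Usp42 passed it without BLM 3 and with no filter on low counts, where 3.95% and 4.04% of all genes were called.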

How the results depend on the processing

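Library totals ran from 7005005 to 11153154 counts, and a count of 0 allows up to 3 counts. For Uchl3, 89 of 99 alternative fold changes kept their direction, and none passed the threshold. With the replicate block its averaged genotype effect was -0.16. Leaving out 1 library at a time gave log2 ranges of -2.48 to -0.88 (BLM against Con), -0.65 to 0.34 (KO against Con), -1.08 to 1.45 (KOBLM against BLM), -2.30 to -0.25 (KOBLM against KO), -1.92 to -0.80 (bleomycin averaged), -0.69 to 0.57 (genotype averaged) and -0.76 to 1.76 (interaction). The lone sign changes came without Con 3 in KO against Con, without BLM 3 or KOBLM 2 in KOBLM against BLM, without Con 1, Con 2, BLM 3, KO 2 or KOBLM 2 in the averaged genotype effect, and without KOBLM 2 in the interaction. DESeq2 called 1 gene in BLM against Con, 1 in KOBLM against BLM, 2 in KOBLM against KO, 2 for bleomycin averaged and 1 for the interaction, with 7.25%, 5.78%, 3.52%, 6.43% and 4.79% of all genes called in that order. Both the adjusted p and the replicate block left 0 calls in KO against Con and in both averaged effects. With the replicate block, 0.766%, 2.76% (bleomycin) and 1.68% (genotype) of all genes were called there. No filter on low counts gave 2, 0 and 1 for bleomycin averaged, genotype averaged and the interaction, with 5.26%, 4.08% and 4.04% of all genes called. Without 1 library the calls numbered 0 to 0 in BLM against Con, 0 to 1 in KO against Con, 0 to 1 in KOBLM against BLM, 0 to 1 in KOBLM against KO, 0 to 2 for bleomycin averaged, 0 to 3 for genotype averaged and 0 to 1 for the interaction. The share of all genes called ran, in the same order, over 2.25% to 5.84%, 0.659% to 3.45%, 1.82% to 3.59% and 0.82% to 3.02%. For the last 3 it was 3.09% to 6.47%, 2.25% to 4.7% and 1.96% to 4.76%. The members' median turned to -0.01 with library size alone in KOBLM against BLM, where single libraries left out gave -0.18 to 0.16, to 0.02 with the replicate block in KOBLM against KO, and ranged from -0.22 to 0.04 for genotype averaged. The same-numbered libraries were not paired (correlations of deviations -0.144 to 0.092). Chosen after seeing the data were TMM-scaled CPM, BLM 3 left out of the overlap counts, the alternatives for Rps27a and Psmd14, and the Usp11 bound without Con 1. With TMM, 8, 5, 5 and 3 genes of 61 did not overlap in the 4 comparisons of 2 groups, against 16%, 9.09%, 10.8% and 6.87% of all genes. The cause of these changes was not tested.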
